A study of Homo sapiens with 3 samples.

Results

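S100 proteins are small calcium-binding proteins of the EF-hand superfamily, and 7 of their genes were followed in THP-1 cells during inhibition of LSD1. They were selected by the UniProt accession that names a row of the count table: P06702 (S100A9), P05109 (S100A8), P80511 (S100A12), P60903 (S100A10), P06703 (S100A6), P26447 (S100A4) and P31949 (S100A11). The measured values bore on this choice, because the counts of S100A12 at the 3 times were known to be among those that differed most, and the levels and ratios of the members are therefore a description. The symbols follow from the UniProt numbering and not from the files. Rows were found for 6 of the 7 accessions, among 213543 features of which 73321 are named by a protein accession. The level of S100A11 was not analysed here, apart from its transcript rows.

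Within monocytes and neutrophils, S100A8 and S100A9 pair to form calprotectin, and S100A12 is their close relative, also called calgranulin C. When released, these proteins act as alarm signals through the Toll-like receptor TLR4 and the receptor RAGE (gene AGER). The other members act mainly inside cells, where S100A10 binds annexin A2, S100A11 binds annexin A1, S100A4 binds non-muscle myosin and S100A6 binds the calcyclin-binding protein CACYBP. S100A10 is unusual in the family because it does not bind calcium.

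THP-1 is a cell line from a human acute monocytic leukemia with an MLL-AF9 fusion, and GSK-LSD1 is an inhibitor of the lysine demethylase LSD1. RNA-seq was performed on untreated cells (labelled Control and WT, 0 h) and on cells that received 0.2 µM GSK-LSD1 for 8 h or for 24 h, with 1 library per time point, all from the same cell line, so that every difference compares libraries and has no replicate check. There is no untreated library at 8 h or 24 h, so treatment and time in culture cannot be told apart. Total RNA was depleted of ribosomal RNA, and the library totals were 1475938, 1310912 and 1444011 counts for 0, 8 and 24 h. In bulk RNA, fewer cells of a type and less RNA per cell cannot be told apart.

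The labelled cell type was compared with marker genes. Of 9 monocytic markers, all with a row, 2 were at 0 in each library (CD33 and CSF1R), 5 reached 10 counts (LYZ, PTPRC, CD4, ITGAM and MPO), and ITGB2 and CD68 had at most 7. The 4 neutrophil markers with a row (LTF, CAMP, FCGR3B and MMP8, of 6 listed) were at 0 in each library, and of 7 markers of other cell types 6 were at 0, with COL1A1 at 0, 4 and 2 counts. The summed level of the monocytic markers in CPM, which are counts relative to the scaled library size, was 1045, 1303 and 2090 for 0, 8 and 24 h. LYZ alone had 426, 583 and 1248 CPM of this sum and so held most of its rise. The part of the monocytic markers in the S100 levels was not tested. At 24 h against 0 h, 2 of the 5 markers that reached 10 counts (LYZ and ITGAM) were more than 2-fold higher and 0 were more than 2-fold lower. Of all features that reached 10 counts, 6.19% were higher and 5.58% lower past this change, by the fold rule defined further below. PTPRC had 402 CPM at 0 h and 367 CPM at 24 h. It is not stated how reads shared by several rows were counted, so a row at 0 does not show that a gene is silent.

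All 7 genes lie on chromosome 1 of GRCh38. S100A9, S100A12 and S100A8 are neighbours within 33.2 kb (chromosome 1, 153357854 to 153391073), with S100A9 on the forward strand and the other two on the reverse strand. S100A6 starts 178 kb and S100A4 188 kb beyond the start of S100A9, both on the reverse strand. S100A10 (151982915 to 151993859) and S100A11 (152032506 to 152047907) lie more than a megabase before it, also on the reverse strand. The reference transcript of each gene has 3 exons and between 408 bases (S100A8) and 671 bases (S100A10).

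The promoters of S100A9, S100A12 and S100A8 are shown because these neighbouring genes had the largest ratios among the members at 24 h. Each line gives the 250 bases before the start site, 5′ to 3′ on the strand of the gene, from RefSeq (GRCh38.p14), at chr1:153357604-153357853 (forward strand), chr1:153375622-153375871 (reverse strand) and chr1:153391074-153391323 (reverse strand). Capitals mark matches on either strand to the C/EBP string TTGCNNAA, to a string known from PU.1 sites (GAGGAA), or to the letters of a TATA box, which are spelled out in the next paragraph.
S100A9: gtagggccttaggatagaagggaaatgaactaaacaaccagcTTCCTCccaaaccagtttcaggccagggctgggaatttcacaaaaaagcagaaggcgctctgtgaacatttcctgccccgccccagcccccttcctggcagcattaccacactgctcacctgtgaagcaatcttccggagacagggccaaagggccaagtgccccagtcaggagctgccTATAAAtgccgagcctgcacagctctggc
S100A12: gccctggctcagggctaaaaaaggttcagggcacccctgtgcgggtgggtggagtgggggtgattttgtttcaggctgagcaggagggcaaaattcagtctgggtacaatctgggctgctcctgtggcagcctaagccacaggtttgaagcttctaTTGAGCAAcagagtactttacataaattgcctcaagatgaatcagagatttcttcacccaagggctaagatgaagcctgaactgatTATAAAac
S100A8: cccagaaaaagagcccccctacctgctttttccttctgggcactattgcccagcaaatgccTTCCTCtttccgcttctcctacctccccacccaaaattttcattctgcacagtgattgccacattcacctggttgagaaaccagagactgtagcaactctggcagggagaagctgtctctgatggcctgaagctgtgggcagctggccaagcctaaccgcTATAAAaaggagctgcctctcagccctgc

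The letters TATAAA stood 29 to 24 bases before the start site in both S100A9 and S100A8, and 8 to 3 bases before it in S100A12. Among all 35116 promoter windows of the same length, 10.7% held these letters. GAGGAA was found on the opposite strand 208 to 203 bases before the start of S100A9 and 189 to 184 bases before that of S100A8, against 23.6% of all windows. A single TTGCNNAA match, at 94 to 87 bases, was found in S100A12, against 9.05% of all windows, and S100A11 held another. The windows of S100A10 and S100A6 held none of the 3 strings, and that of S100A4 held TATAAA 31 to 26 bases before its start. No matches of different strings overlapped in these windows. RefSeq gives S100A8 more than one start site, and the window shown is that of the reference transcript. A match describes the letters and does not show binding.

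S100A9 was the most highly counted member in each library. Its counts were 324, 399 and 1894 for 0, 8 and 24 h, which is 211, 312 and 1334 CPM. The 24 h library thus stood far above both others, and the 8 h library stood above 0 h. The level of S100A9 was 1.48-fold higher at 8 h than at 0 h (95% counting interval 1.27 to 1.72) and 6.32-fold higher at 24 h (5.62 to 7.14). These intervals are exact (Clopper-Pearson, given the summed count of the pair of libraries). Like all intervals here they cover counting error only, because 1 library per time point gives no spread between replicates. No molecular identifiers are described, so reads are not known to be independent molecules, and the intervals may be too narrow.

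S100A8, the partner of S100A9 in calprotectin, had 26, 25 and 169 counts for 0, 8 and 24 h. Levels were 16.9, 19.5 and 119 CPM, so that the intervals of 0 h and 8 h overlapped and 24 h stood apart. The ratio at 8 h against 0 h was 1.15 (0.639 to 2.08), and the interval includes 1. At 24 h the level was 7.03-fold higher than at 0 h (4.63 to 11.1).

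S100A12, a ligand of RAGE, had 3, 7 and 109 counts for 0, 8 and 24 h, or 1.95, 5.47 and 76.7 CPM. The counts at 0 h were at the limit that a count of 0 allows (3 counts, 1.95 CPM at 0 h), and almost all of its reads came from the 24 h library. Its ratio at 24 h against 0 h was 39.3 with a wide interval of 13.1 to 194, and at 24 h against 8 h the log2 ratio was 3.81 (2.72 to 5.16). At 8 h against 0 h the ratio was 2.80 (0.639 to 16.8), which was not distinguishable from 1 at this depth.

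S100A10, the annexin A2 ligand, was higher already at 8 h. It had 28, 55 and 99 counts for 0, 8 and 24 h, or 18.2, 43.0 and 69.7 CPM. Its level was 2.36-fold higher at 8 h than at 0 h (1.47 to 3.86), and 1.62-fold higher at 24 h than at 8 h (1.16 to 2.30). Over the whole time it was 3.82-fold higher (2.49 to 6.05).

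S100A6, also called calcyclin, had 10, 17 and 25 counts for 0, 8 and 24 h, or 6.51, 13.3 and 17.6 CPM. Its ratio at 8 h against 0 h was 2.04 (0.882 to 4.98), and at 24 h against 0 h it was 2.70 (1.25 to 6.31). Each step alone had an interval that includes 1, the step from 8 h to 24 h being 1.33 (0.688 to 2.62). S100A4, a binding partner of non-muscle myosin, had 2, 0 and 2 counts for 0, 8 and 24 h, where a count of 0 allows up to 3 counts or 2.34 CPM, and a change was not detectable at this depth.

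**Figure D1:**
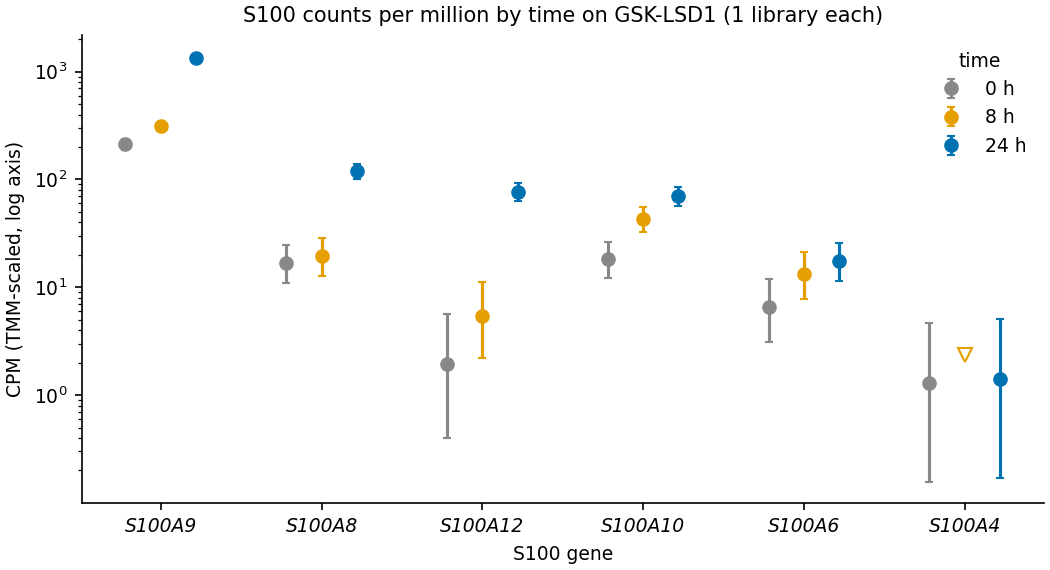
TMM-scaled CPM (log axis) of 6 S100 genes in the libraries at 0 h, 8 h and 24 h, 1 library each; points are levels, bars are exact 95% Poisson counting intervals, and the open triangle is the limit of 3 counts for S100A4 at 8 h. At 24 h S100A9 reached 1334 CPM and S100A8, S100A12 and S100A10 lay between 69.7 and 119 CPM.

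The sizes of the steps differed between the members. For S100A9, S100A8 and S100A12 the larger step was from 8 h to 24 h, with log2 ratios of 2.10, 2.61 and 3.81. For S100A10 the log2 ratio was 1.24 from 0 h to 8 h (0.56 to 1.95) and 0.70 from 8 h to 24 h (0.21 to 1.20). For S100A6 it was 1.03 (-0.18 to 2.32) and 0.41 (-0.54 to 1.39). The intervals of both steps overlap for S100A10, S100A6 and S100A12, so which step was larger is not settled for these genes. The members were also set against each other by ratios of their counts, which do not depend on library scaling.

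**Figure D2:**
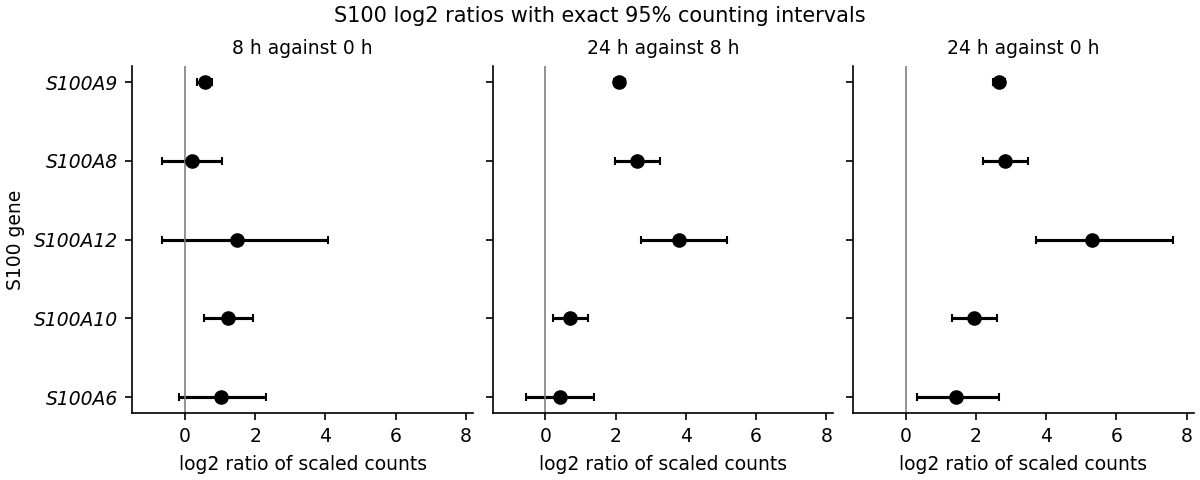
Log2 ratios of scaled counts for 5 S100 genes between pairs of libraries, with exact 95% counting intervals and a line at 0. At 8 h against 0 h the intervals of S100A9 and S100A10 lie above 0, and at 24 h against 8 h those of S100A9, S100A8, S100A12 and S100A10 do.

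Among the 5 members with at least 10 counts in a library there are 10 pairs, and the ratio of their counts was compared between libraries with an exact conditional odds ratio, without adjustment for the number of pairs. From 0 h to 8 h, 0 of 10 pairs had an interval that excludes 1. From 8 h to 24 h, 7 of 10 did, and from 0 h to 24 h, 5 of 10 did. The 10 pairs share 5 genes and are not separate results. S100A12 was known to be among the features that differed most, and it reached 10 counts through the 24 h library alone. These numbers are therefore a description. From 8 h to 24 h, S100A9 gained on S100A10 by 2.64-fold (1.83 to 3.77), S100A8 by 3.74-fold (2.14 to 6.69) and S100A12 by 8.59-fold (3.67 to 23.4). The same held against S100A6, with gains of 3.23-fold (1.62 to 6.28), 4.56-fold (2.01 to 10.3) and 10.4-fold (3.63 to 33.0). From 0 h to 24 h, S100A12 gained 10.2-fold on S100A10 (3.01 to 54.0) and 14.2-fold on S100A6 (3.34 to 85.9), and S100A9 gained 1.65-fold on S100A10 (1.03 to 2.58). The intervals over that time included 1 for S100A8 to S100A10 (1.83, 0.976 to 3.46), S100A8 to S100A6 (2.59, 0.992 to 6.40) and S100A9 to S100A6 (2.34, 0.992 to 5.10).

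For the ratio of S100A8 to S100A9, the interval of its change included 1 in all 3 comparisons. There were 0.0802 counts of S100A8 per count of S100A9 at 0 h (0.0516 to 0.120), 0.0627 at 8 h (0.0401 to 0.0939) and then 0.0892 at 24 h (0.0758 to 0.104). The change of this ratio from 0 h to 24 h was 1.11-fold with an interval of 0.719 to 1.78, so a change of this balance was not detectable at this depth, and the data allow one within that range. For S100A6 to S100A10 the corresponding change was 0.709-fold (0.286 to 1.86), a wider range.

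Against both calprotectin genes, S100A12 stood higher at 24 h than at 0 h. It had 0.00926 counts per count of S100A9 at 0 h (0.00190 to 0.0273), 0.0175 at 8 h (0.00701 to 0.0365) and then 0.0576 at 24 h (0.0470 to 0.0698). From 0 h to 24 h it gained 6.21-fold on S100A9 (2.05 to 30.8) and 5.57-fold on S100A8 (1.65 to 29.4). From 8 h to 24 h the gain on S100A9 was 3.28-fold (1.52 to 8.41), while that on S100A8 had an interval that includes 1 (2.30, 0.925 to 6.51).

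Together the 6 rows held 393, 503 and 2298 counts for 0, 8 and 24 h. As a share of the library this was 0.0266% before treatment (0.0241% to 0.0294%, Wilson interval at 95%), 0.0384% at 8 h (0.0352% to 0.0419%) and then 0.159% at 24 h (0.153% to 0.166%). S100A9 made up 82.4% of the S100 counts before treatment (78.4% to 85.9%), 79.3% at 8 h (75.6% to 82.6%) and again 82.4% at 24 h (80.8% to 83.9%). The share of S100A12 was 0.763% at 0 h (0.260% to 2.22%) and 4.74% at 24 h (3.95% to 5.69%), while S100A10 went from 7.12% (4.98% to 10.1%) over 10.9% at 8 h (8.50% to 13.96%) to 4.31% (3.55% to 5.22%).

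Levels between genes were compared per length, as CPM per kilobase of the reference transcript. At 0 h the order was S100A9 with 368 (329 to 410.4), S100A8 with 41.5 (27.1 to 60.8), S100A10 with 27.2 (18.0 to 39.3), S100A6 with 15.0 (7.19 to 27.6), S100A12 with 4.03 (0.830 to 11.8) and S100A4 with 2.54 (0.307 to 9.17). Below S100A9, the counting intervals of neighbours in this order overlap. At 8 h S100A9 had 544 (492 to 599.9), S100A10 had 64.0 (48.2 to 83.3) and S100A8 had 47.9 (31.0 to 70.6), followed by S100A6 with 30.6 (17.8 to 49.0) and S100A12 with 11.3 (4.53 to 23.2), again with overlapping neighbours below S100A9. At 24 h the order was S100A9 with 2327 CPM per kilobase (2224 to 2435), S100A8 with 292 (249 to 339), S100A12 with 158 (129.9 to 191), S100A10 with 104 (84.4 to 126), S100A6 with 40.6 (26.2 to 59.9) and S100A4 with 2.74 (0.332 to 9.92). At that time no neighbouring intervals overlapped, and S100A12 had moved from the fifth to the third place.

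How reads shared by several rows were counted is not stated, and this touches the members unequally. For S100A9 and S100A12, GENCODE v44 annotates 1 transcript each, and 0% of its bases fall on exons of a transcript that has a row of its own. This share was 57.4% for S100A8, 48.3% for S100A10, 46.5% for S100A6, 83.7% for S100A11 and 100% for S100A4, the member with the fewest counts. Only rows named by an Ensembl transcript were searched, so the bases shared with rows of further protein isoforms are not included. The part of shared reads in the levels was not tested. Exons of other genes cover 0% of the reference transcripts of all 7 genes.

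The rows of these genes that are named by an Ensembl transcript held few reads, and rows of further protein isoforms were not searched. A second S100A8 transcript had 0, 4 and 2 counts for 0, 8 and 24 h, the S100A10 transcripts summed to 0, 1 and 4, and an S100A6 retained intron had 0, 0 and 2. One S100A4 transcript had 0, 0 and 1 count, and a transcript of S100A11 itself had 0, 0 and 1. The 8 S100A11 pseudogenes with a row had 0 counts in each library, which allows up to 3 counts per row.

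**Figure D3:**
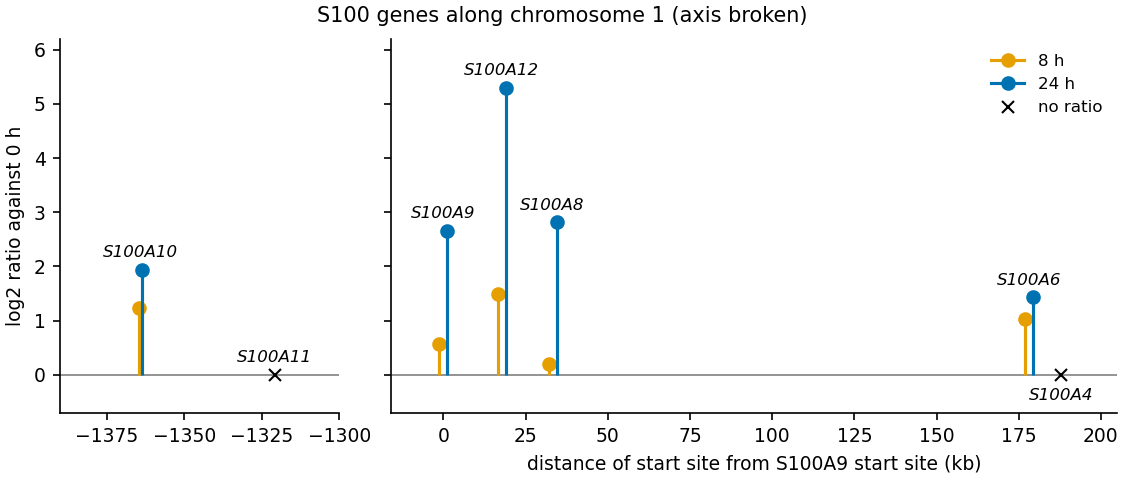
Log2 ratios at 8 h and 24 h against 0 h (vertical axis) of the S100 genes at the distance of their start site from that of S100A9 in kb (horizontal axis, broken, with points of 8 h and 24 h set slightly apart sideways); crosses mark genes with no ratio. At 24 h the neighbours S100A9, S100A12 and S100A8 have log2 ratios of 2.66, 5.30 and 2.81, and S100A10 and S100A6 have 1.94 and 1.44, with intervals of the difference that include 0 for S100A8 against both and for S100A9 against S100A6.

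The other S100 genes gave almost no reads. Of 13 further family members, S100A1, S100A2, S100A5, S100A7, S100A7A, S100A13, S100A16, S100B, S100P, S100G and S100Z were at 0 under their accessions in each library. S100A3 and S100A14 had 1 count each, at 24 h. A transcript of S100A13 without a defined coding sequence had 6, 4 and 2 counts.

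All 9609 features that reached 10 counts in a library were set beside the members. A fold change here is a difference of log2 CPM after adding a prior count of 2, and a feature is counted as higher or lower past a log2 fold change of 1, which is 2-fold. At 24 h against 0 h, the 5 members that reached 10 counts were all higher past it, beside 6.19% of all features higher and 5.58% lower. For S100A6 the counting interval of the ratio (1.25 to 6.31) includes 2-fold. S100A12 passed the minimum of 10 counts through the 24 h library alone, and S100A4 did not pass it. Past a log2 fold change of 2 there were 3 members (S100A12, S100A8 and S100A9), against 0.978% of all features. The study used this fold for its CAGE data at 8 h, together with a significance cut-off that was not applied here.

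At 8 h against 0 h, S100A12 and S100A10 were higher past a log2 fold change of 1, beside 4.51% of all features higher and 6.02% lower. For S100A12 neither of these libraries reached 10 counts and the interval of its ratio included 1, so its place there is no evidence of a difference, and with total counts as library sizes 1 member was past it. At 24 h against 8 h, S100A12, S100A8 and S100A9 were higher past it, beside 4.03% of all features higher and 1.97% lower. No member was lower past it in any of the 3 comparisons, which share libraries. At 24 h against 0 h, 1 of these features had a larger fold change than S100A12, 16 a larger one than S100A8, 21 than S100A9, 117 than S100A10 and 371 than S100A6. The median over the 5 members was 2.65 at 24 h against 0 h, and that over all features was -0.01.

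**Figure D4:**
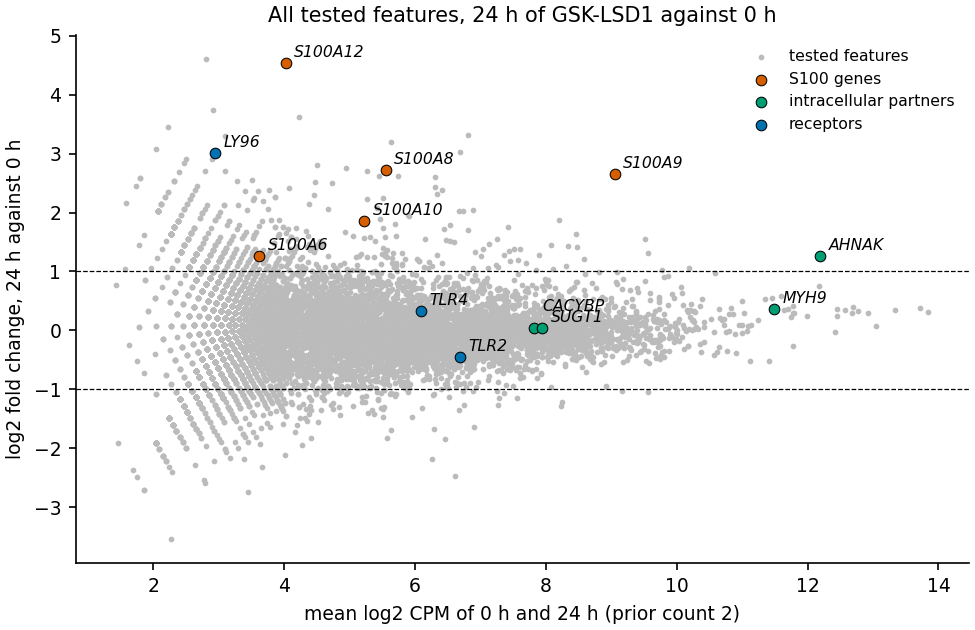
Log2 fold change at 24 h against 0 h (prior count 2) and mean log2 CPM of both libraries for all 9609 features (grey), with 5 S100 genes, their partners and receptors in colour; dashed lines mark log2 fold changes of 1 and -1. S100A12 has a log2 fold change of 4.54, and S100A9 one of 2.65 at the highest mean level of the S100 genes.

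The named features most like S100A12 were sought by the distance between pairs of log2 fold changes (8 h against 0 h and 24 h against 8 h), over 3 libraries and 265 named features that reached 50 counts. The nearest were S100A8 at a distance of 1.29 and S100A9 at 1.49, which were also the nearest of all 4218 features with that many counts. S100A12, S100A8 and the FAM20C transcript reached 50 counts in the 24 h library alone, and the 8 h value of S100A12 rests on 3 and 7 counts, so the order is a description of these libraries. Next among the named features came ITGAM, the integrin subunit CD11b of monocytes (2.19), a FAM20C transcript (2.39) and LYZ, which encodes lysozyme (2.48). Among all 4218 features these stood at places 9, 12 and 14. Rows named by a protein had a symbol only if a list held them, and ITGAM and LYZ were listed as monocytic markers. The features in between have no name here, so the search does not show that monocytic genes lie nearest. ITGAM had 87, 120 and 339 counts and LYZ had 655, 747 and 1773, so both stood highest at 24 h. Their ratios at 24 h against 0 h were 4.21 (3.32 to 5.40) and 2.93 (2.68 to 3.21).

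Among the intracellular partners, 4 of the 7 genes with a row reached 10 counts. AHNAK, a giant scaffold protein that binds the complex of S100A10 and annexin A2, had 4646, 7093 and 10261 counts for 0, 8 and 24 h. It was 1.83-fold higher at 8 h (1.76 to 1.90) and 2.39-fold higher at 24 h (2.31 to 2.47) than at 0 h, and it had the larger step before 8 h. The step before 8 h was also the larger estimate for S100A10, but the intervals of its steps overlap. MYH9, the non-muscle myosin heavy chain bound by S100A4, had 3893, 4350 and 4644 counts, a ratio of 1.29 at 24 h against 0 h (1.24 to 1.35). CACYBP and SUGT1, which bind S100A6, had ratios of 1.03 at 24 h against 0 h, with intervals that include 1. Of the list, 1 gene (AHNAK) was higher past the 2-fold change at 24 h against 0 h and 0 were lower, beside 6.19% of all features higher and 5.58% lower. The median log2 fold change of the list was 0.21, against -0.01 over all features. ANXA2 had 0, 0 and 1 count under its accession, and ANXA6 and ANXA11 were at 0.

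Of the receptors, 3 of 7 reached 10 counts. TLR4, which receives calprotectin and S100A12, had 91, 68 and 106 counts, and its ratio at 24 h against 0 h was 1.26 (0.943 to 1.69). LY96, which encodes the TLR4 co-receptor MD-2, had 2, 20 and 29 counts, with a ratio of 15.7 at 24 h against 0 h and a wide interval of 3.97 to 136. TLR2 had 183, 104 and 123 counts and was lower at 8 h (0.682, 0.531 to 0.872) and at 24 h (0.727, 0.574 to 0.919). LY96 was the 1 receptor gene past the 2-fold change, at 8 h and at 24 h against 0 h. Over all features, 4.51% were higher and 6.02% lower past it at 8 h, and 6.19% higher and 5.58% lower at 24 h. LY96 reached 10 counts through the 8 h and 24 h libraries, where it was higher, so this number is a description. The median log2 fold change of the 3 receptor genes was 0.33 at 24 h and -0.051 with a minimum of 50 counts, a change of sign. CD14 had 0, 5 and 6 counts, BSG had 4, 6 and 5, and AGER and CD36 were at 0.

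Myeloid transcription factors of the C/EBP family, PU.1, KLF4 and IRF8 were listed beside the calprotectin genes and S100A12. Of 7 with a row, 6 reached 10 counts, 0 of them were past the 2-fold change in either direction in any comparison, where between 1.97% and 6.19% of all features were past it in a given direction, so that few of any 6 features would be, and the median log2 fold change was 0.11 at 8 h and 0.00 at 24 h against 0 h. SPI1, which encodes PU.1, had 69, 87 and 102 counts, a ratio of 1.60 at 24 h against 0 h (1.17 to 2.20). CEBPD had 137, 119 and 183 counts, a ratio of 1.44 (1.15 to 1.82). CEBPA had 1848, 1716 and 1717 counts and a log2 ratio of 0.01 at 24 h (-0.09 to 0.10), and for CEBPB and IRF8 the interval of the log2 ratio at 24 h also included 0 (-0.74 to 0.13 and -0.50 to 0.23). CEBPE had 25, 32 and 23 counts, and KLF4 was at 0 under its accession in each library.

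**Figure D5:**
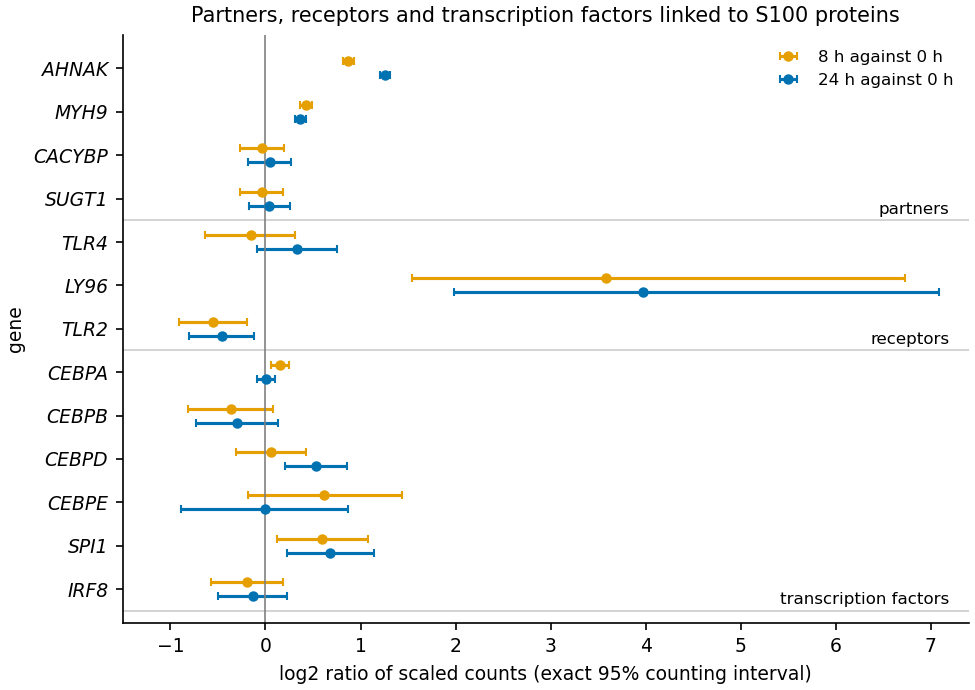
Log2 ratios of scaled counts at 8 h and 24 h against 0 h for partners, receptors and transcription factors that reached 10 counts, with exact 95% counting intervals and a line at 0. AHNAK (1.26 at 24 h) and LY96 (3.97 at 24 h) lie farthest to the right.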

How the data were processed

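RNA-seq libraries of THP-1 cells at 0 h, 8 h and 24 h of GSK-LSD1 were analysed, 1 library per time point, grouped by their labels. The authors mapped reads to hg38 through Seq2science (STAR as default aligner, with fastp also listed in the submitters' processing notes) and deposited raw, unscaled counts per feature. How features were counted (tool, annotation, strand, shared reads) is not given in the sources used here. Library sizes were scaled by TMM (edgeR 4.0.16, R 4.3.3) over features reaching 10 counts in a library. A TMM factor assumes that most features do not change. Ratios used no prior count, and fold changes across features used a prior count of 2. Ratios with a count of 1 to 3 kept their interval. No p-value was computed. The interval and the fold rule were tried on simulated independent Poisson counts. These hold no spread between libraries and no duplicate or shared reads, so the trial checks the code and not the fit to these data. Gene models came from GENCODE v44 (GRCh38), and promoters from RefSeq, whose bases were checked against hg38. Symbols of accession rows came from a hand-written list of UniProt accessions, which no table used here pairs with genes. The members and lists were chosen with earlier results of these data known. Named were all members, the S100 family, S100 transcripts, listed partners, receptors and factors reaching 50 counts in a library or counted in groups of 5 or fewer, and the 5 named features nearest to S100A12. Other low-count listed genes and marker genes were named after their values were seen. Python 3.11.15, numpy 2.4.6, pandas 2.3.3, scipy 1.17.1, statsmodels 0.14.6 and matplotlib 3.10.9 were used. The alternatives were size factors of DESeq2 1.42.0, library totals (also leaving out mitochondrial ribosomal RNA), prior counts of 0.5 and 5, no filter, at least 50 counts, a loess correction, adding transcript rows, and intervals wholly past the threshold.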

Additional observations from a re-analysis of the deposited data

How the results depend on the processing

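With 1 library per time point, no replicate could be left out. No paired analysis was possible because each time point has 1 library and no test was run. The 75 alternative log2 ratios of the 5 members and the 30 alternative count ratios stayed within their counting intervals, and 0 of the 75 log2 ratios changed sign. Some of these intervals are wide, such as -0.65 to 4.07 for S100A12 at 8 h against 0 h, so staying within them is a weak check. In that comparison the log2 ratio ranged from 1.39 to 1.99 for S100A12 and from 0.11 to 0.42 for S100A8. At 24 h against 0 h the log2 ratio ranged from 5.21 to 5.30 for S100A12, 2.73 to 2.84 for S100A8, 2.58 to 2.67 for S100A9, 1.85 to 1.99 for S100A10 and 1.35 to 1.55 for S100A6.

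The number of members higher past 2-fold at 8 h fell from 2 to 1 with total counts, to 1 without mitochondrial ribosomal RNA and to 1 with a prior count of 5, and it was 0 with intervals wholly past the threshold. At 24 h against 0 h it went from 5 to 4 with at least 50 counts, where S100A6 (at most 25 counts) was no longer tested. With intervals wholly past the threshold it fell to 4, because the interval of S100A6 includes 2-fold. The numbers over all features depended on low counts. A prior count of 5 gave 255 higher and 294 lower at 8 h against 0 h, 294 lower at 24 h against 0 h, and 156 higher and 78 lower at 24 h against 8 h. No filter gave 3306 and 2214, 2456 and 2022, and 1820 and 2829 in the same order. At least 50 counts gave 84 and 64, 139 and 72, and 26 and 4. At 24 h against 0 h, the main number of 94 features higher past a log2 value of 2 became 162 with a prior count of 0.5, 36 with one of 5 and 28 with at least 50 counts. A prior count of 0.5 gave 293 lower at 24 h against 8 h. The main numbers were 433 and 578, 595 and 536, and 387 and 189.

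The number of receptors higher past 2-fold was 2 with no filter and 0 with at least 50 counts, at 8 h and at 24 h against 0 h. Their median log2 fold change was 0.62 at 8 h with no filter and -0.37 with at least 50 counts, -0.051 at 24 h with at least 50 counts, and 0.049 at 24 h against 8 h with no filter. The values of 0.62 and -0.051 have the opposite sign to the main medians of -0.15 and 0.33. The median of the transcription factors at 24 h, 0.00, turned to -0.08 with total counts. With no filter the median of the partners was 0.00 at 8 h and 0.34 at 24 h. A stricter filter tests fewer features and no filter more, and the cause of the other shifts was not tested.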
